A study of Mus musculus with 14 samples.

Results

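The genes described here are 10 members of the bone morphogenetic protein (BMP) pathway, measured in the heads of mouse embryos at embryonic day 8.5 (E8.5). They are the ligands Bmp2, Bmp4, Bmp5 and Bmp7, the secreted inhibitors Chrd and Nog, the target genes Msx1 and Msx2, and the inhibitory SMADs Smad6 and Smad7. Every probe annotated with 1 of these symbols was taken, which gave 13 probes for 10 of the 19057 genes named on the array. For 7 of the 10 genes at least 1 probe was above background, and these 7 were above background on 14 of 14 arrays. The probes of Bmp2, Msx2 and Smad7 were above background on 0 of 14 arrays.

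BMP ligands are secreted dimers of the TGF-beta superfamily that bind paired type I and type II serine/threonine kinase receptors. The receptors phosphorylate SMAD1, SMAD5 and SMAD9, which join SMAD4 and act on target genes in the nucleus. Chordin, encoded by Chrd, and noggin, encoded by Nog, bind the ligands outside the cell and keep them from their receptors. SMAD6 and SMAD7 block the signal inside the cell and are themselves induced by it, which closes a feedback loop. In the early head BMP signals come from surface ectoderm and the dorsal neural folds and bear on neural crest, while chordin and noggin from the axial midline are needed for the forebrain to form.

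The study addressed the role of Twist1, a bHLH factor needed in head mesenchyme, within mesoderm that had expressed Mesp1. Each of the 14 arrays was hybridised with total RNA of heads of 5 to 7 somites, from mice of mixed C57Bl/6, 129 and BALB/c background. Control heads carried Twist1flox/+ without Cre (n = 4). CM-Het heads carried Twist1flox/+ and Mesp1Cre/+ (n = 3), so that the lineage that had expressed Mesp1 keeps its wild-type copy. Het heads carried Twist1flox/del without Cre, so that every cell has a single usable copy (n = 3). CM-CKO heads carried Twist1flox/del and Mesp1Cre/+, which removes the remaining copy in the Mesp1 lineage and leaves it in all other cells (n = 4). All 4 genotypes share a floxed allele, and both Cre genotypes carry Cre in place of a Mesp1 copy. The labels do not say whether an array holds 1 embryo or several, or which litters were used. The p-values therefore reflect the spread between arrays, which may be technical. A whole head mixes mesoderm with neural tube, neural crest, ectoderm and endoderm, and a lower signal from fewer cells of a type cannot be told apart from less RNA per cell.

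Twist1, the targeted gene, was brightest in Control (log2 signal 9.32 ± 0.20, SD), followed by CM-Het (8.65 ± 0.14), Het (8.60 ± 0.12) and CM-CKO (7.75 ± 0.14), with the n given above. It was lower in CM-CKO than in Control by a log2 difference of -1.56 (limma adjusted p = 1.28e-07), in the direction of the labels. Markers of head tissue were present throughout, with a mean log2 signal of 7.86 to 8.26 for the head neural tube list and 7.61 to 7.82 for the surface ectoderm list. Head mesenchyme markers, a list that holds Twist1 itself, lay at 7.31 to 7.66 in Control and 6.47 to 6.55 in CM-CKO. Some arrays stood apart within their genotype. The mean log2 signal of 13 heart muscle markers was 8.38 to 9.81 on 5 arrays (Control 1, Control 3, Het 3, CM-CKO 2 and CM-CKO 4) and 6.80 to 7.45 on the other 9. Primitive erythroid markers averaged 8.61 on CM-CKO 1 and at most 6.59 elsewhere, and yolk sac endoderm markers 8.27 on Control 1 and at most 6.76 elsewhere. By the array names, beadchip 1 held CM-Het with Het, beadchip 2 held Control with CM-CKO 1 and CM-CKO 2, and beadchip 3 held the remaining CM-CKO arrays. Xist and the Y-linked Eif2s3y were both above background on 8 of 14 arrays, which therefore held RNA of both sexes, that is of more than 1 individual. Xist was not above background on Het 3, CM-CKO 3 and CM-CKO 4.

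Signals are given as background-corrected, quantile-normalised log2 values, on which the dimmest probes above background lay between 4.70 and 4.80. Because probes differ in brightness, a level is compared between arrays for 1 probe and never between genes.

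Bmp4, a ligand of the subgroup that also holds Bmp2, was read at 8.49, 8.18, 8.42 and 8.32 on the Control arrays and at 7.95, 8.63, 8.45 and 8.64 on the CM-CKO arrays. The CM-Het arrays gave 8.28, 8.43 and 8.36, and the Het arrays 7.87, 8.10 and 8.20. All 3 Het values were below all 3 CM-Het values, while the CM-CKO arrays spanned nearly the whole range of the gene, with CM-CKO 1 low and the other 3 high. The means were 8.36 ± 0.13 in Control, 8.36 ± 0.07 in CM-Het, 8.06 ± 0.17 in Het and 8.42 ± 0.32 in CM-CKO. In order of level this is Het, Control, CM-Het and CM-CKO, of which the last 3 did not differ beyond their spread. A second Bmp4 probe was above background on 10 of 14 arrays and ran from 4.40 to 5.44, near the detection limit, with Control lowest and CM-Het highest on average, so it did not repeat the order of the brighter probe.

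Bmp5 and Bmp7 belong to another subgroup of BMP ligands and overlap in function in the mouse embryo. Bmp5 signals were 5.71, 5.51, 5.44 and 5.47 in Control and 5.44, 5.77, 5.82 and 5.68 in CM-CKO. They were 5.50, 6.18 and 5.59 in CM-Het and 5.77, 5.38 and 5.52 in Het. The genotypes overlapped, and CM-Het 2 alone exceeded 6. Bmp7 signals were 7.97, 7.78, 7.81 and 8.00 in Control, 7.72, 7.87 and 7.63 in CM-Het, 7.41, 7.45 and 7.72 in Het, and 7.59, 8.20, 7.58 and 7.85 in CM-CKO. All 3 Het arrays were below all 4 Control arrays for Bmp7, and CM-CKO again held both the highest array and low ones. Mean Bmp7 was 7.53 ± 0.17 in Het, 7.74 ± 0.12 in CM-Het, 7.80 ± 0.29 in CM-CKO and 7.89 ± 0.11 in Control. CM-Het exceeded Het by 0.22, beside an SD within genotypes of 0.20, and the other neighbours in this order lay within that SD. A second probe, for another Bmp7 transcript, was above background on 1 array only.

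**Figure D1:**
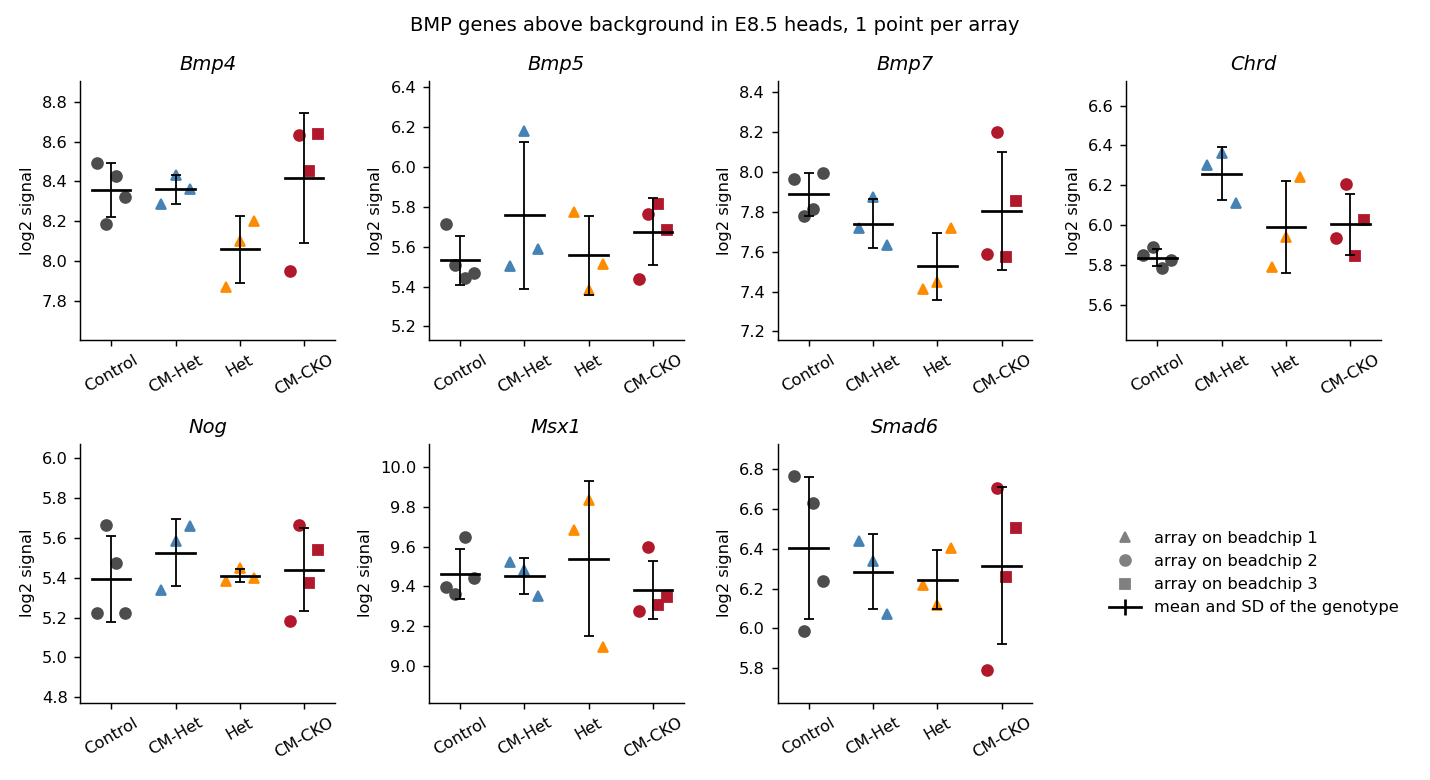
Each panel plots the log2 signal of 1 gene (y axis, 1.3 log2 units high in every panel) by genotype (x axis), with 1 point per array, marker shapes for the beadchip and black bars for the genotype's mean and SD. The genotypes overlap for most of the 7 genes; the 3 CM-Het arrays of Chrd (6.11 to 6.36) lie above the 4 Control arrays (5.78 to 5.89).

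Chrd had the tightest Control values of the 7 detected members, 5.85, 5.89, 5.78 and 5.82. The CM-Het arrays read 6.30, 6.36 and 6.11, the Het arrays 5.79, 5.94 and 6.24, and the CM-CKO arrays 5.94, 6.21, 5.85 and 6.02. Every CM-Het array was above every Control array, while the Het and CM-CKO arrays overlapped both groups. Nog stayed near the lower end of the measured range, at 5.22, 5.66, 5.47 and 5.22 in Control, 5.34, 5.58 and 5.66 in CM-Het, 5.38, 5.45 and 5.40 in Het, and 5.18, 5.66, 5.37 and 5.54 in CM-CKO. The 4 Nog means lay between 5.40 and 5.53, and their range of 0.13 was smaller than the SD within a genotype, 0.18.

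Msx1 encodes a homeobox transcription factor that BMP signals induce in dorsal neural tube, neural crest and ectoderm. It gave 9.40, 9.36, 9.65 and 9.44 in Control and 9.28, 9.60, 9.31 and 9.35 in CM-CKO. The CM-Het arrays read 9.52, 9.48 and 9.35 and the Het arrays 9.68, 9.84 and 9.10. Het therefore held the 2 highest values of the gene and the lowest, which was Het 3, and the other genotypes overlapped. A second Msx1 probe was above background on 14 of 14 arrays (5.03 to 5.75). It too averaged highest in Het (5.50) and lowest in CM-CKO (5.25), with every genotype overlapping.

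Smad6, whose product restrains BMP receptors and their SMADs and which is known for its expression in the developing heart and vessels, varied most. Its signals were 6.76, 5.99, 6.63 and 6.24 in Control and 5.79, 6.71, 6.26 and 6.50 in CM-CKO. They were 6.44, 6.34 and 6.07 in CM-Het and 6.22, 6.12 and 6.40 in Het. Both the highest array, Control 1, and the lowest, CM-CKO 1, came from genotypes that spread widely, and the 4 means lay between 6.25 and 6.40.

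The other 3 members were not above background in any genotype. Bmp2, the ligand closest to Bmp4, ran from 4.18 to 4.43, the homeobox gene Msx2 from 4.19 to 4.34, and the inhibitory SMAD Smad7 from 4.17 to 4.42. Each has 1 probe on the array, and no fold can be given for them. The Msx2 probe is annotated to a cDNA clone, whereas those of Bmp2 and Smad7 are annotated to RefSeq transcripts. It may therefore miss the main Msx2 transcript.

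Loss of Twist1 in the Mesp1 lineage was read from CM-CKO against Control, which also differ by the deleted allele in all other cells and by Cre. No BMP gene of the 7 was called: 0 of 7 passed an adjusted p under 0.05 in limma, where 0.702% of 11394 genes did, and 0 of 7 had an unadjusted p under 0.05, where 11.2% of genes did. The log2 differences were 0.17 for Chrd (95% interval -0.09 to 0.42), 0.14 for Bmp5 (-0.18 to 0.46), 0.06 for Bmp4 (-0.21 to 0.34) and 0.04 for Nog (-0.24 to 0.33). They were -0.08 for Msx1 (-0.34 to 0.18), -0.08 for Bmp7 (-0.35 to 0.19) and -0.09 for Smad6 (-0.49 to 0.31). Adjusted p ran from 0.637 to 0.939. The median over the 7 was 0.04, beside 0.00 over all genes, and CM-CKO and Control did not separate for any of the 7, against 5.44% of genes whose arrays did not overlap. The intervals together reached from 0.711-fold to 1.38-fold in normalised signal, and differences within that span were not resolved by 4 arrays a group. Larger differences in this signal lay outside the intervals of these 7 genes. The offset added in normalisation shrinks folds of dim signals, such as those of Nog and Bmp5. For such genes the span does not bound the change in RNA. It also refers to whole heads and not to the Mesp1 lineage alone.

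**Figure D2:**
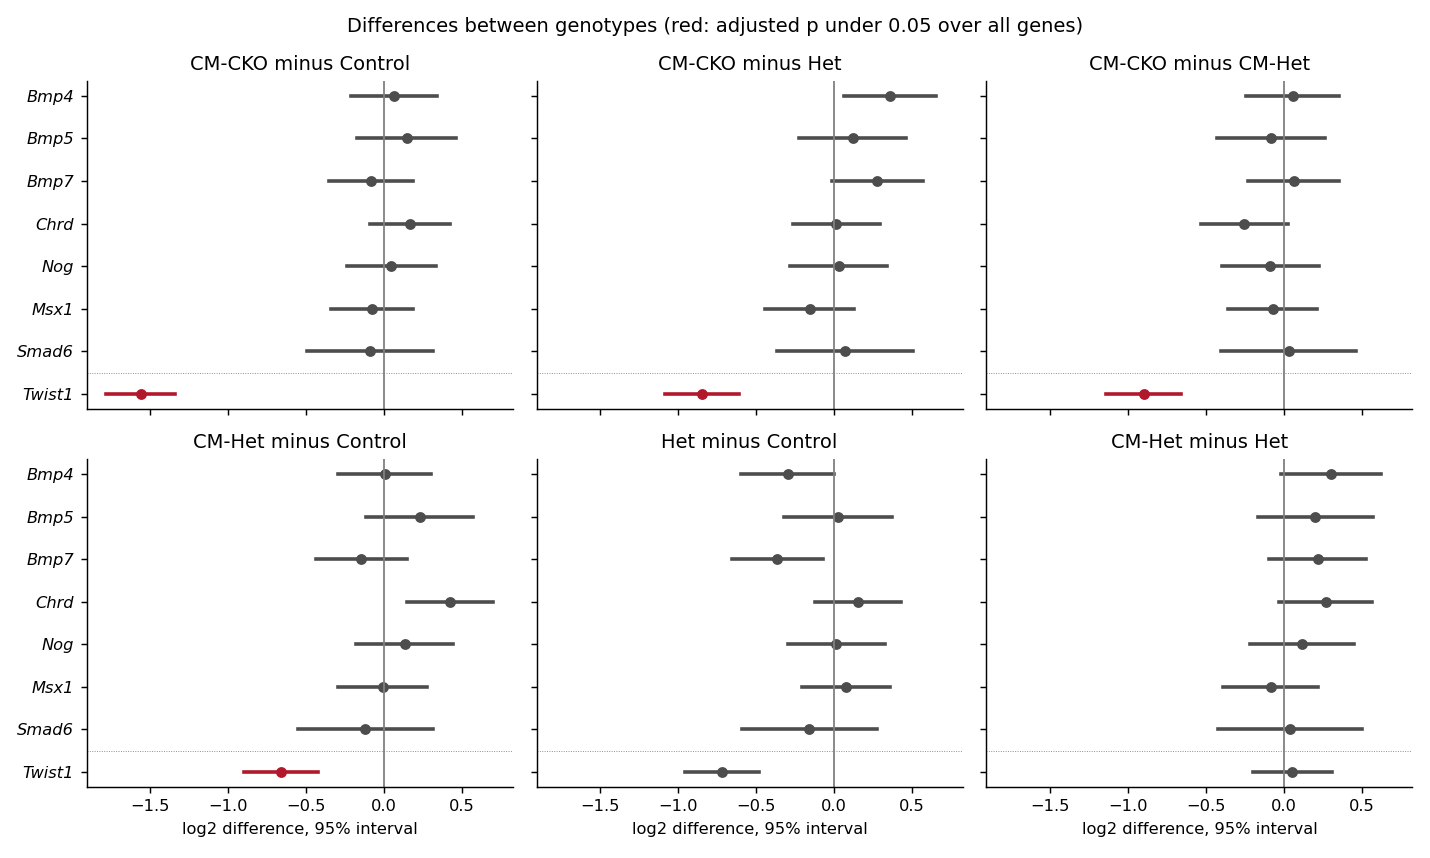
Points are log2 differences (x axis) between 2 genotypes with 95% intervals from limma, 1 panel per pair, for 7 BMP genes and, below the dotted line, Twist1; red marks an adjusted p under 0.05 over 11394 genes. Twist1 lies at -1.56 in CM-CKO minus Control, while the 7 BMP genes in that panel lie between -0.09 and 0.17, and none of the 7 is red in any panel.

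The remaining pairs of genotypes likewise called 0 of 7 members at an adjusted p under 0.05 in limma. Adding Cre to the deleted allele (CM-CKO minus Het, with 0.219% of genes called) gave the highest value for Bmp4, 0.36 (interval 0.06 to 0.66, unadjusted p = 0.0210, adjusted p = 0.495). Bmp4 was the 1 member under an unadjusted 0.05 there, where 7.99% of genes were. Bmp7 gave 0.28 (-0.01 to 0.57) and Msx1 -0.16 (-0.44 to 0.13), a value that was -0.38 (adjusted p = 0.254) without Het 3. Without CM-CKO 2 the Bmp7 value was 0.15 (adjusted p = 0.869). With median scaling, which moved the median of all genes in this comparison from 0.01 to -0.13, Bmp7 read 0.12 and Bmp4 0.20. CM-CKO shares no beadchip with Het or CM-Het, so beadchip and genotype cannot be told apart in either of these pairs. Adding the deleted allele to Cre (CM-CKO minus CM-Het, with 0.211% of genes called) placed all 7 between -0.25 for Chrd and 0.06 for Bmp7, with 0 of 7 under an unadjusted 0.05 against 10.6% of genes.

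Chrd held the largest difference among the members in CM-Het against Control, a comparison in which 0.412% of genes were called. It was 0.42 higher on the log2 scale in CM-Het (SE 0.13, interval 0.14 to 0.70, 3 against 4 arrays), with an unadjusted p of 0.0052 and a limma adjusted p of 0.149. It was the 1 member whose CM-Het arrays all lay above the Control arrays, which held for 6.91% of genes, and the 1 member under an unadjusted 0.05, where 15.8% of genes were. Over the processing alternatives the Chrd difference ran from 0.19 with the deposited processed values to 0.60 with median scaling. That scaling moved the median of all genes in this comparison from -0.02 to 0.16. The adjusted p of Chrd did not go below 0.0707. The other 6 members lay between -0.15 and 0.23. CM-Het and Control share no beadchip, so a shift between beadchips and this genotype difference cannot be told apart.

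Het against Control, also on separate beadchips, gave lower values for Bmp7 and Bmp4. Bmp7 was at -0.36 (interval -0.65 to -0.07, unadjusted p = 0.0179, limma adjusted p = 0.291) and Bmp4 at -0.30 (-0.60 to 0.00, 0.0499 and 0.402). All Het arrays were below all Control arrays for Bmp7, as they were for 5.70% of genes. At an unadjusted 0.05 these were 2 of 7 members, beside 12.4% of genes, and 0% of genes passed the adjusted threshold. With median scaling, which moved the median of all genes in this comparison to 0.18, Bmp7 read -0.15 and Bmp4 -0.09. CM-Het and Het, which lie on 1 beadchip, differed by 0.30 for Bmp4 (-0.02 to 0.62, unadjusted p = 0.0620), and their Bmp4 arrays did not overlap, as for 4.97% of genes in that direction. At an unadjusted p under 0.05 this pair had 0 of 7 members and 3.96% of genes, and 0% of genes passed the adjusted threshold.

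In the average effect of Cre over both Twist1 settings a shift of beadchip 1 cancels, but one between beadchips 2 and 3 does not, and the same holds for the average effect of the deleted allele. For Cre, 0 of 7 members were called by limma and 0.263% of genes were. Chrd had the largest value there, 0.22 (interval 0.02 to 0.41, unadjusted p = 0.0318, adjusted p = 0.603), and was the only member under an unadjusted 0.05, as 7.24% of genes were. In the average effect of the deleted allele the members lay between -0.15 and 0.00, with 0 of 7 under 0.05 before or after adjustment, beside 7.24% and 0.0878% of genes. The interaction, the Cre effect with the deleted allele minus that without it, was 0.43 for Bmp7 (unadjusted p = 0.0442, adjusted p = 0.302) and -0.41 for Chrd (0.0425 and 0.299), and limma called 0 of 7 members and 1% of genes. A shift between beadchip 1 and the other beadchips adds to the interaction, and median scaling moved its median over all genes from 0.03 to -0.29. Under an unadjusted 0.05 these were 2 of 7, beside 15.8% of genes. The F test over the 4 genotypes called 0 of 7 members and 0.799% of genes. Before adjustment it placed 1 member under 0.05, Chrd (unadjusted p = 0.0404, adjusted p = 0.337), where 13.7% of genes were.

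The spread between arrays of a genotype was wide for several members. The SD within genotypes was 0.31 for Smad6, at the 94.0th percentile of all genes, and 0.20 to 0.22 for Bmp4, Bmp5, Bmp7 and Msx1 (67.5th to 76.7th percentile). Nog, at 0.18, and Chrd, at 0.15, were near the median of all genes, 0.16. A pair of CM-CKO arrays lay to either side of their group. CM-CKO 1 was below its genotype's mean for 7 of 7 members and lowest of the 4 arrays for 5 of them, and CM-CKO 2 was above the mean for 7 of 7 and highest for 5. The shares of all genes placed so on these arrays were not counted, so the counts may not be particular to the members. CM-CKO 1 is the array with the high erythroid signal, and CM-CKO 2 is among the 5 with high heart muscle signal; their part in these values was not tested.

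**Figure D3:**
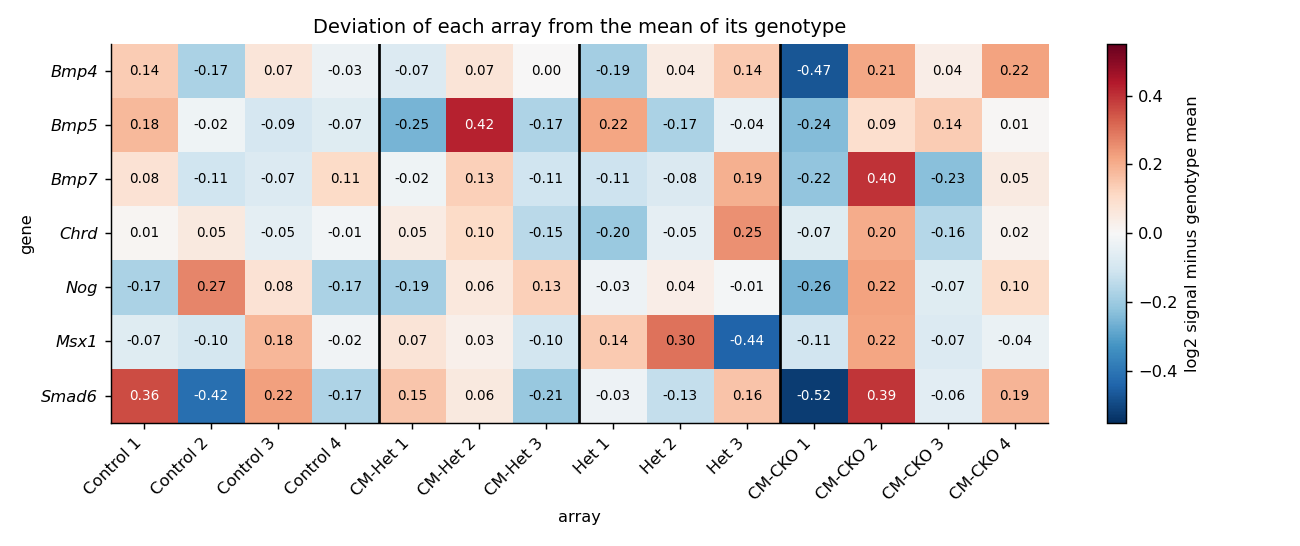
Colours and printed numbers give the log2 signal of each gene (rows) on each array (columns) minus the mean of that array's genotype, with vertical lines between genotypes. The column of CM-CKO 1 is below 0 in all 7 rows and that of CM-CKO 2 above 0 in all 7, and the row of Smad6 holds the lowest value, -0.52 on CM-CKO 1.

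Smad6 signal was higher on the arrays of high heart muscle signal within each genotype that held some. On the 5 arrays of high heart muscle signal Smad6 read 6.76 (Control 1), 6.63 (Control 3), 6.40 (Het 3), 6.71 (CM-CKO 2) and 6.50 (CM-CKO 4). On the other 9 arrays it ran from 5.79 to 6.44. In Control, Het and CM-CKO alike, each array of high heart muscle signal had more Smad6 signal than each of the others. In a limma fit with genotype means and heart muscle signal, a test chosen after these values were seen, Smad6 rose by 0.26 per log2 unit of heart muscle signal (SE 0.06, interval 0.14 to 0.37, adjusted p = 0.0238), and 1.21% of genes rose with it in this sense. The slope stayed between 0.22 and 0.29 when single arrays were left out, but the call was lost without CM-CKO 1 (adjusted p = 0.119), Control 1 (0.127), Control 2 (0.0897) or CM-CKO 2 (0.0502). It was also lost without the 3 arrays that lack Xist signal (slope 0.29, adjusted p = 0.0568). With the deposited processed values, which are not background subtracted, the slope was 0.12 and still called (adjusted p = 0.0180). Among the 9 arrays of lower heart muscle signal alone, which span 6.80 to 7.45, the slope was 0.37 and not called (adjusted p = 0.881). Control 1, highest in heart muscle signal (9.81), is also the array of high yolk sac endoderm signal (8.27). CM-CKO 1, lowest in heart muscle signal (6.80), is that of high erythroid signal (8.61). The part of these other contents in the Smad6 slope was not tested.

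**Figure D4:**
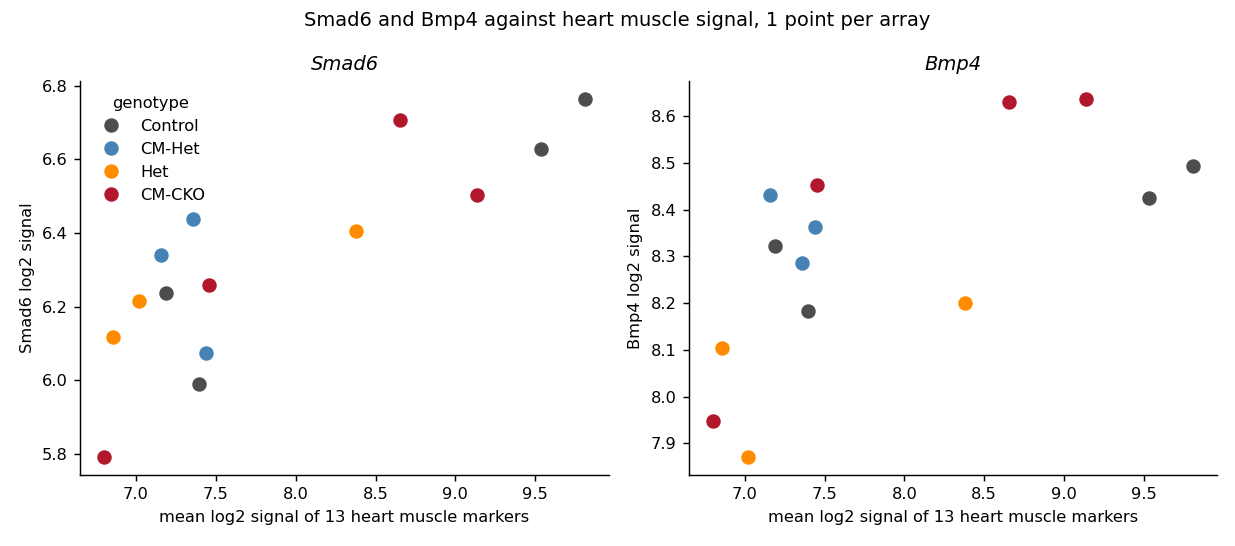
The mean log2 signal of 13 heart muscle markers (x axis) is plotted against the log2 signal of Smad6 (left) and Bmp4 (right, y axes), with 1 point per array coloured by genotype. The 5 arrays at 8.38 or more on the x axis have Smad6 signals of 6.40 to 6.76, and the 9 at 7.45 or less have 5.79 to 6.44.

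Bmp4 had a slope of 0.15 on the same scale (SE 0.04, interval 0.06 to 0.24, unadjusted p = 0.0035), which missed the threshold over all genes (adjusted p = 0.162). Without CM-CKO 1 it was 0.10 (adjusted p = 0.483). These were 2 of 7 members under an unadjusted 0.05, beside 8.64% of genes, and 1 of 7 under the adjusted threshold, beside 1.27%. The slopes of the other 5 lay between -0.01 for Msx1 and 0.09 for Bmp7. With heart muscle signal in the fit, 0 of 7 members were called in any comparison of genotypes. The share of all genes called in that fit is not given here, so this count does not set the members apart.

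The genes whose signal most resembled a member over the 14 arrays were found by Pearson's r, as a description of arrays that share genotype, tissue content and beadchip. Smad6 was closest to Bves (r = 0.92, Spearman's rho = 0.85), a membrane protein of heart muscle, and to Pcgf5 (r = 0.90, rho = 0.87), a Polycomb subunit. Bmp4 was closest to Akap5 (r = 0.89, rho = 0.82), a kinase anchor protein, and Ifitm3 (0.88, 0.82), and Bmp5 to the kinase Mapk6 (0.90, 0.88) and Fuz (0.86, 0.74), a planar polarity effector of cilia. Bmp7 was closest to Eif2b1 (r = 0.88, rho = 0.92), of translation initiation, and Krt18 (0.86, 0.76), a keratin of simple epithelia that is among the surface ectoderm markers. The nearest to Chrd were Fzd5 (r = 0.84, rho = 0.86), a Wnt receptor, and 6330509M05Rik (0.83, 0.69), and to Nog the GTPase Rab26 (0.87, 0.94) and the steroid dehydrogenase Hsd11b2 (0.86, 0.84). Msx1 had the weakest likeness, with Surf4 (r = 0.80, rho = 0.74), a cargo receptor, and 1700037H04Rik (0.79, 0.75).

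Few other listed ligands of the TGF-beta superfamily were detected in these heads. Of 12 other ligands listed, 11 were on the array and 1, Gdf1, was above background. Gdf1 is known from the node and left-right patterning, and its mRNA can also carry Cers1, so its probe may read both. Its mean ran from 9.87 ± 0.05 in Het to 10.1 ± 0.20 in CM-CKO, and CM-CKO minus Control was 0.18 (adjusted p = 0.447).

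Most receptors of the signal were above background, and the SMADs were covered only in part. Of 12 receptors and co-receptors, 10 were above background, and Acvrl1, a receptor of endothelium, and Hjv, the hemojuvelin co-receptor, were not. In CM-CKO against Control 0 of the 10 were called by limma and 2 of 10 were at an unadjusted p under 0.05, beside 0.702% and 11.2% of all genes. Among the 10, 6 values were higher and 4 lower, and their median was 0.03 beside 0.00 over all genes. The lowest differences were those of Eng, endoglin, a co-receptor of endothelium, at -0.59 (SE 0.21, adjusted p = 0.295), and Tgfbr3, betaglycan, at -0.46 (SE 0.13, adjusted p = 0.137). Eng was also lower than Control in CM-Het (-0.63, limma adjusted p = 0.206) and in Het (-0.40, 0.488), and CM-CKO minus CM-Het was 0.05. Endothelium markers lay at 7.45 to 7.69 in Control and 7.19 to 7.32 in CM-CKO, with 10 of 12 lower and 2 of 12 called lower, and their part in the Eng value was not tested. Of 4 named signal transducers and ubiquitin ligases, Smad1 and Smad5 were above background, at differences of 0.10 and -0.10, and Smad9 and Smurf1 were not. Smad4, which the other SMADs join, and Smurf2 have no named probe on the array and were not read.

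Tgfbr3 fell in CM-CKO against Het, a pair that shares no beadchip, so that a shift between beadchips and this difference cannot be told apart. This co-receptor presents TGF-beta family ligands, BMPs among them, to their receptors. It read 7.38, 7.68, 7.37 and 7.62 on the CM-CKO arrays and 8.15, 8.30 and 8.26 on the Het arrays, with 8.32, 7.88, 7.90 and 7.78 in Control and 8.11, 8.40 and 7.93 in CM-Het. All 4 CM-CKO arrays were below every array of the other genotypes. Against Control alone, 5.44% of genes did not overlap in either direction. The share of genes below all other genotypes was not counted. The difference from Het, a comparison with 0.219% of genes called, was -0.72 (SE 0.14, limma adjusted p = 0.0291). It was -0.64 from CM-Het (adjusted p = 0.0608) and -0.46 from Control. The F test (adjusted p = 0.0329) and the interaction of Cre and the deleted allele (log2 -0.90, adjusted p = 0.0343) also passed, as for 0.799% and 1% of genes. The call against Het was lost when any Het array, CM-CKO 1 or CM-CKO 3 was left out (largest adjusted p 0.214, without Het 2), at values of -0.77 to -0.68, and with the replicate number as a block (-0.71, adjusted p = 0.105). It was also lost with median scaling (-0.89, adjusted p = 0.0675, with the median of all genes at -0.13) and without a variance trend (0.0540). The same held with the beadchip 3 arrays of CM-CKO alone (0.127) and without the 3 arrays that lack Xist signal (-0.70, 0.304). A second Tgfbr3 probe was not above background on any array.

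Among 21 other inhibitors and modulators of BMP signals, 11 were above background and 9 that the array names were not, among them the pseudoreceptor Bambi and the antagonists Chrdl1, Chrdl2 and Sost. In CM-CKO against Control 0 of 11 were called by limma and 0 were at an unadjusted p under 0.05, beside the same 0.702% and 11.2% of all genes. Among the 11, 8 values were higher and 3 lower, and the median was 0.09. Fstl1, a secreted glycoprotein that binds BMP ligands, had a difference of -0.14 (adjusted p = 0.534). Cer1, a secreted inhibitor of Nodal, Wnt and BMP signals known from the anterior endoderm, was at the detection limit. It was above background on 3 of 3 CM-Het arrays (5.10, 5.23 and 5.02), 1 of 4 Control arrays, 0 of 3 Het arrays and 2 of 4 CM-CKO arrays. No difference is given for it, since most Control and all Het arrays were not above background.

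Of 15 other BMP target genes, 13 were above background, and Dlx5 and Hand1 were not. In CM-CKO against Control 1 of 13 was called higher and 0 lower, beside 0.702% of all genes called in either direction. Among the 13, 8 values were higher and 5 lower, and the median was 0.10. The called gene was Hey1, a bHLH repressor that NOTCH also induces, with 9.52, 9.60, 9.48 and 9.76 in CM-CKO and 9.29, 9.05, 9.11 and 9.11 in Control (log2 0.45, SE 0.09, adjusted p = 0.0178). All CM-CKO arrays were above all Control arrays (5.44% of genes did not overlap, in either direction), and the means of CM-Het, at 9.40 ± 0.08, and Het, at 9.23 ± 0.19, lay between. Leaving out CM-CKO 4 or any of Control 2, 3 and 4 ended that call (largest adjusted p 0.0846), as did keeping to beadchip 2 (0.42, adjusted p = 0.428) or leaving out the 5 arrays of high heart muscle signal (0.42, adjusted p = 0.119). It was lost as well when the fit included beadchips as blocks (adjusted p = 0.220), with the beadchip 3 arrays of CM-CKO alone (0.0902), with median scaling (0.51, 0.450) and without the arrays lacking Xist signal (0.138). Gata3, a zinc finger factor of surface ectoderm, was 7.70 ± 0.09 in CM-Het and 7.31 ± 0.13 in Control, a difference of 0.39 (SE 0.12, adjusted p = 0.141) that was not called. Over all pairs of genotypes, calls in the 5 lists were those of Hey1 in CM-CKO against Control and Tgfbr3 in CM-CKO against Het.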

How the data were processed

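Per the file headers, the deposited table holds a linear signal intensity (median 92.3 to 116 per array) and a detection p-value per probe. Which scanner and software made them is not given in the sources used here. Another deposited table holds log2 values with a median of 6.72, equal to quantile-normalised log2 intensities to within 0.0379; it served as an alternative. As deposited, detection p and intensity correlated at -0.105 to -0.0946 by rank, so p-values were put back by rank within each array, a step chosen after the values were seen; the restored set of p-values matches some deposited row for 45261 of 45281 probes.

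Intensities were corrected and normalised with neqc (offset 16, limma 3.58.1, R 4.3.3). A probe was kept when 3 or more arrays had a detection p below 0.05 (40.3% to 43.0% of probes per array). Of 45281 probes, 34885 have 1 symbol in the platform annotation, 18 several and 10378 none. The brightest of the 17991 kept named probes was taken per gene, which gave 11394 genes. The number of arrays limits the precision.

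Group means over 14 arrays were fitted with lmFit and eBayes (trend), and each adjusted p is limma's, with Benjamini-Hochberg adjustment over 11394 genes, called under 0.05. The script was tested on simulated data. Alternatives changed the scaling, filter, probe choice, variance model, blocks and arrays used.

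The members and lists were chosen with earlier results of these data known, so they are no independent support. Named were the 10 members, pathway genes called between genotypes or in the F test, the 2 of each list with the smallest F-test p, the 2 genes most like each member, Twist1 and the marker lists. Genes not above background in the lists were named after their values were seen. In the lists, Hfe2 and Spink3 were updated to Hjv and Spink1 through the gene synonyms of RefSeq. Embryos at E9.5 were not analysed here.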

Additional observations from a re-analysis of the deposited data

Results flagged for a closer look

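Gdf1 on CM-CKO 1 lay apart from the other 3 CM-CKO arrays: it read 9.77 against 10.2, 10.2 and 10.2, and the gap was 0.898 of the group's whole range. Fstl1 on the same array read 9.62 against 9.83, 9.86 and 9.84, a gap of 0.864 of the range. Both exceed Dixon's 95% critical value for 4 samples. These were 2 of 32 sets of 4 arrays examined over 16 genes, and chance flags about 1 in 20. CM-CKO 1 is also the array of high erythroid signal and the lowest of its genotype for 5 of 7 members.

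The effect of Cre on Tgfbr3 differed with the second Twist1 allele. Cre was accompanied by a log2 difference of 0.18 beside the wild-type allele (CM-Het minus Control) and of -0.72 beside the deleted one (CM-CKO minus Het), an interaction of -0.90 (SE 0.19, limma adjusted p = 0.0343). In the interaction 1% of all genes were called. A shift between beadchip 1 and the others would add to this interaction and cannot be told apart from it.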

How the results depend on the processing

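Under 30 alternatives, each of 281 recomputed counts of called members was 0. In the main fit 0% to 1% of all genes were called per comparison of genotypes. Counts of 0 among 7 genes are therefore no measure of stability, and the shares of all genes under the alternatives are not given here. Of 1185 recomputed differences of single members, 1161 moved by less than the gene's SD within genotypes and 24 by more, 77 turned sign, and 0 were called. The smallest adjusted p of any member was 0.0707, for Chrd in CM-Het against Control with the beadchip as a random block. Median scaling moved the median of all genes to as much as 0.18 between genotypes on separate beadchips (Het minus Control) and to -0.29 in the interaction. It turned Bmp7 in CM-Het minus Control from -0.15 to 0.07 and Smad6 in Het minus Control from -0.16 to 0.01. With the deposited order of detection p, Bmp7 was read from its other probe and gave 0.02 in Het minus Control. Without the arrays of high heart muscle signal, Msx1 in CM-CKO minus Het was -0.47 (adjusted p = 0.0964) and Bmp7 in CM-CKO minus Control -0.30 (0.358). The cause was not tested. Replicate numbers did not pair the samples: 4 of 19 same-numbered pairs correlated above 0.1 (range -0.237 to 0.251), and the replicate block called 0 members. Signal near background limits Nog, Bmp5, Cer1 and the 3 undetected members.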
